A study of Mus musculus with 10 samples.

Results

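Antimicrobial and oxidant defence genes were examined in colon tumours as a set of 10 genes, Lcn2, S100a8, S100a9, Nos2, Duox2, Duoxa2, Reg3b, Reg3g, Reg4 and Saa3. Every probe set annotated to just 1 of these genes was taken, which gave 10 of the 45101 probe sets on the array and 9 of the 18193 genes that have a probe set of their own. Reg3b had 2 probe sets, the other 8 genes had 1 each, and Duox2 was not analysed here, since the annotation used lists no probe set for it. Affymetrix mouse expression arrays were hybridised with amplified RNA from tumour tissue cut out under a laser-dissecting microscope, 1 array per tumour. There were 5 tumours labelled KO, from mice with the genotype vil-Cre-Bcl9-/-/Bcl9l-/-, and 5 tumours labelled WT, from wild-type mice. All mice had the mixed 129SvEv/C57BL/6/DBA/2 background and were treated alike, at an age of 6 to 8 weeks, with dimethylhydrazine, a colon carcinogen precursor, at 44 mg/kg, and afterwards with drinking water that held 2% dextran sulfate sodium, an agent that injures the colon lining, for 7 days. The villin promoter of vil-Cre drives the recombinase in intestinal epithelium, so stromal and immune cells of a KO tumour are not the intended site of the deletion. Whether the wild-type mice carried vil-Cre is not given in the sources used here. KO tumours 2 and 6 came from mouse 02, KO tumours 9 and 11 from mouse 04 and KO tumour 7 from mouse 99, while WT tumours 1, 3, 12 and 13 came from mouse 72 and WT tumour 8 from mouse 82. The extraction text of the labels speaks of pooling the samples of a mouse, whereas the arrays are listed as single tumours.

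These genes encode proteins that epithelial cells and neutrophils deploy against bacteria. Lipocalin-2 and calprotectin, the pair made by S100a8 and S100a9, withhold metals from microbes, Nos2 and the Duox enzymes make nitric oxide and hydrogen peroxide, Reg3 lectins act on bacteria at the mucosal surface, and serum amyloid A proteins rise in inflammation. In the gut many of them are induced through interleukin-22, interleukin-17, interferon or microbial signals, and several also rise in injured or tumour-bearing colon.

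The members did not form 1 block in these tumours. Nos2, which encodes inducible nitric oxide synthase, was the only gene of the 9 that passed the test, with a signal higher by 1.88 log2 in KO tumours, while 8 did not pass and none was lower past the threshold. Without passing, Duoxa2 and Reg4 had higher means in KO tumours, and Lcn2 and Saa3 had lower ones. Reg3b and Reg3g were at high levels in 1 tumour of each genotype. The test was limma over 12250 genes (1 probe set per gene, mean level at or above log2 5.82) with the mouse as a random block and Benjamini-Hochberg adjustment, and it called 868 genes, 7.09% of those tested, 509 of them higher (4.16%) and 359 lower (2.93%) in KO tumours. An unadjusted p under 0.05 was reached by 4 members, Nos2, Duoxa2, Reg4 and Saa3, and by 22.4% of all genes tested. All 9 members passed the level filter, which takes the mean over the 10 tumours, with 5 differences above 0 and 4 below. The WT mean of Nos2 (5.64) lay under the filter, so Nos2 entered the test through the KO tumours. Reg3b had medians under it in both genotypes (5.36 in KO, 4.58 in WT) and entered through its high tumours. The median difference of the 9 members, 1.28 log2 against 0.03 over all genes tested, was the value of Reg3b. Without KO tumour 2 that median was −0.17, and with array weights 0.07. In none of the 9 did the KO tumours lie clear of the WT tumours, which was so in 9.12% of genes tested and, over all non-control probe sets, in 6.9%. A second fit over all 45037 non-control probe sets called 4.36% of them and none of the 10 member probe sets, with Nos2 at an adjusted p of 0.0538. Values below are log2 signals per probe set, with mean ± SD over 5 tumours of a genotype. Differences are KO minus WT as fitted with the mouse block, so they can depart slightly from the difference of the means. The number of arrays and that of mice (3 KO, 2 WT) limit their precision, since each mouse has 1 genotype. Nothing in the labels says how far tumours of a mouse are independent. The fitted correlation between them was 0.0586, so the p-values treat them as nearly independent and measure the spread between these tumours. In dissected tissue a lower signal can come from fewer cells of a type or from less RNA per cell, which cannot be told apart here.

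**Figure D1:**
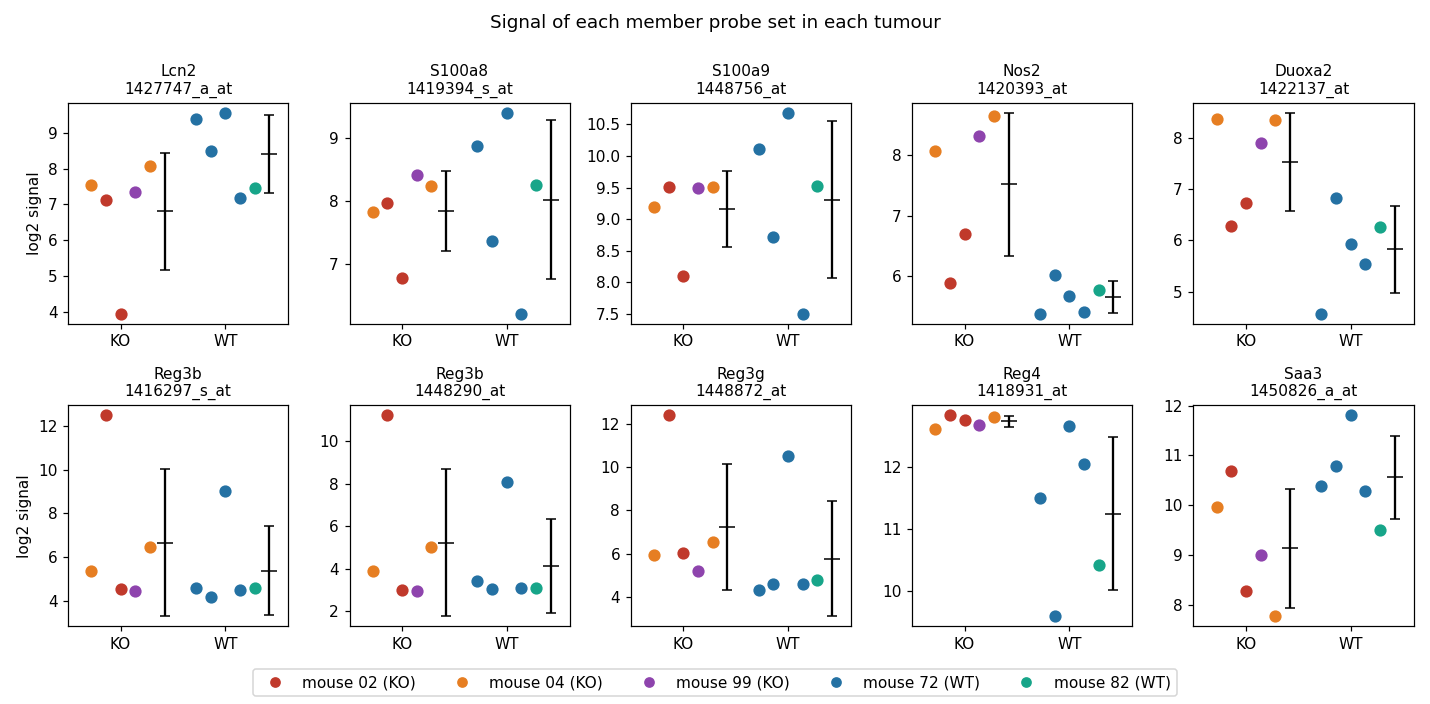
Each panel plots the log2 signal of 1 member probe set (vertical axis, own scale per panel) in the 5 KO and 5 WT tumours, coloured by mouse, with the mean and SD of each genotype in black. Nos2 lies above all WT tumours in 4 of 5 KO tumours, Reg4 is near 12.7 in every KO tumour, and both Reg3b probe sets and Reg3g stand high in KO tumour 2 and WT tumour 13.

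**Figure D2:**
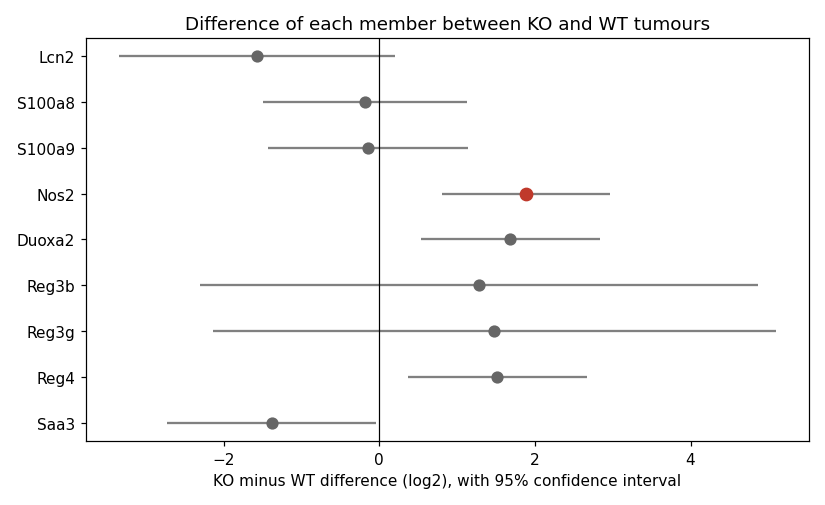
The KO minus WT difference (horizontal axis, log2) of the 9 members tested is drawn as a point with its 95% confidence interval, in red where the adjusted p passed 0.05. Nos2, at 1.88, is the red point, and the intervals of Lcn2, S100a8, S100a9, Reg3b and Reg3g cross 0.

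Lcn2, S100a8 and S100a9, the metal-withholding members, varied widely among tumours of both genotypes. The upstream window of S100a8 is shown because its signal followed that of S100a9 from tumour to tumour. It covers the 250 bases before the gene's start in RefSeq (GRCm38.p6, chr3:90668821-90669070, plus strand), with the letters TATAAA, the TATA box, in capitals.
S100a8: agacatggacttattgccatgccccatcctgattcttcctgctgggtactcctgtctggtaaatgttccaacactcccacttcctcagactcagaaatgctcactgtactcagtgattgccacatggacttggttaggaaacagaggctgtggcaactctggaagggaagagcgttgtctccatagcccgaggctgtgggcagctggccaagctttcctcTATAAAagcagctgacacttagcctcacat
The match begins 30 bases before the start, and the same window of S100a9, its direct neighbour on chromosome 3, held none of the motifs searched.

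S100a8 (probe set 1419394_s_at) was at 7.83, 7.97, 6.77, 8.41 and 8.23 in KO tumours 11, 2, 6, 7 and 9, and at 8.87, 7.37, 9.40, 6.21 and 8.26 in WT tumours 1, 12, 13, 3 and 8. The WT tumours held both the highest and the lowest value, and the genotypes overlapped throughout. S100a9 (probe set 1448756_at) was at 9.19, 9.51, 8.11, 9.49 and 9.51 in the same KO tumours and at 10.11, 8.71, 10.68, 7.51 and 9.53 in the same WT tumours. Both genes thus had their lowest signals in WT tumour 3 and KO tumour 6 and their highest in WT tumours 13 and 1. The difference was −0.18 ± 0.59 log2 (SE) for S100a8 and −0.15 ± 0.58 for S100a9 (limma, adjusted p = 0.892 and 0.912), with 95% intervals from −1.50 to 1.13 and from −1.43 to 1.13. Both signs turned when KO tumour 6 was left out (0.08 for S100a8, 0.11 for S100a9), as they did on leaving out WT tumour 13 (0.16, 0.19) or WT tumour 1 (0.02, 0.04).

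Lcn2 (probe set 1427747_a_at), the gene of lipocalin-2, was at 7.54, 7.11, 3.95, 7.33 and 8.07 in KO tumours 11, 2, 6, 7 and 9. It was at 9.38, 8.48, 9.56, 7.18 and 7.46 in WT tumours 1, 12, 13, 3 and 8. KO tumour 6 stood far below every other tumour and under the level filter, where background was not assessed, and 3 WT tumours lay above every KO tumour. The mean was 6.80 ± 1.63 in KO and 8.41 ± 1.08 in WT (difference −1.57 ± 0.80 log2, SE, adjusted p = 0.281, limma), and without KO tumour 6 the difference was −0.86. Neutrophils carry these 3 proteins in quantity, so a list of neutrophil markers was read beside them. Of 18 neutrophil markers with a probe set, 8 were tested and none passed, with 5 at an unadjusted p under 0.05. The mean of the 8 ranged from 6.73 to 7.94 in KO and from 6.84 to 7.77 in WT tumours, and it was lowest in KO tumour 6 and WT tumour 3, the tumours with the lowest S100a8 and S100a9. Csf3r, the G-CSF receptor, differed by 0.67 log2 and Mmp9, a neutrophil gelatinase, by −1.52, without passing (adjusted p = 0.0796 and 0.0948). Of the 8 differences 6 were above 0 and 2 below, so the mean joins markers that moved in opposite directions. In KO tumour 6 Mmp9 had its lowest value (4.77), while Csf3r was at 6.09. Every KO tumour lay above every WT tumour for Csf3r, in KO tumour 11 by little (5.667, against 5.665 in WT tumour 13). Its WT values all lay under the level filter, where background was not assessed, so Csf3r entered the test through the KO tumours. The other 10 markers of the list lay under the level filter, among them the granule genes Mpo, which reached 6.30 in KO tumour 2 and 6.22 in WT tumour 1, and Elane, at 3.69 or less. Ltf, the gene of the granule protein lactoferrin, was tested and differed by 0.96 log2 (adjusted p = 0.313). The part of neutrophil content in the spread of Lcn2, S100a8 and S100a9 was not tested.

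Nos2, the gene of an oxidant-producing enzyme, and Duoxa2, that of a maturation factor for such an enzyme, were both at their highest in KO tumours of mice 04 and 99. Nos2 (probe set 1420393_at) was at 8.07, 5.88, 6.69, 8.33 and 8.65 in KO tumours 11, 2, 6, 7 and 9, and at 5.37, 6.02, 5.66, 5.41 and 5.76 in WT tumours 1, 12, 13, 3 and 8. Of the KO tumours, 4 lay above every WT tumour, and the exception, KO tumour 2, lay within the WT range. The mean was 7.52 ± 1.19 in KO and 5.64 ± 0.27 in WT, and the rise of 1.88 ± 0.49 log2 (SE) passed the test (limma, adjusted p = 0.0445). The 2 KO tumours of mouse 02 averaged 6.28, against 8.36 for mouse 04 and 8.33 for the tumour of mouse 99. The call was lost without any 1 of 9 tumours (adjusted p from 0.0519 to 0.0938) and held without KO tumour 2 (0.00648), it was lost over mouse means (0.188) and without mouse 04 (1.31 log2, 0.159), and the WT mean lay under the level filter, where background was not assessed. The unique tumour numbers in the titles fall into 191 to 229 (1 KO, 4 WT tumours) and 254 to 258 (4 KO, 1 WT), and the Nos2 difference was 2.62 log2 within the lower range (adjusted p = 0.0388) and 1.95 within the upper (0.362). With the range as a term it was 2.28 (0.0509), and without mouse 72 it was 1.80 (0.433), with 1 WT tumour left.

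Duoxa2 encodes the maturation factor that brings Duox2, the hydrogen peroxide-making dual oxidase of the gut surface, to the cell membrane, and its gene lies next to Duox2 on chromosome 2. Its upstream window is shown because Duoxa2 followed Nos2 across the tumours. It covers 250 bases (RefSeq, GRCm38.p6, chr2:122298650-122298899, plus strand), with a TATAAA match in capitals that begins 30 bases before the start.
Duoxa2: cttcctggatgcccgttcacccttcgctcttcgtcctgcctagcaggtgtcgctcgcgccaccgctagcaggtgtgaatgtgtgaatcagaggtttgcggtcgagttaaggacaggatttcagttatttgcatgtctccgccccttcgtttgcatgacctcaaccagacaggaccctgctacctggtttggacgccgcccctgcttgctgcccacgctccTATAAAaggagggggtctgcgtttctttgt
None of the other motifs searched was in this window, and the same window of Duox2 held no match.

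Duoxa2 (probe set 1422137_at) was at 8.36, 6.29, 6.72, 7.90 and 8.35 in KO tumours 11, 2, 6, 7 and 9. In WT tumours 1, 12, 13, 3 and 8 it was at 4.58, 6.83, 5.93, 5.54 and 6.26. The same 3 KO tumours that were highest for Nos2 lay above every WT tumour, and those of mouse 02 fell within the WT range. The mean was 7.52 ± 0.96 in KO and 5.83 ± 0.84 in WT, a difference of 1.68 ± 0.52 log2 (SE, 95% interval from 0.53 to 2.84) that did not pass (limma, adjusted p = 0.0831). It passed without KO tumour 2 (1.98, adjusted p = 0.0427), without WT tumour 12 (1.94, 0.0490), without mouse 02 (2.36, 0.0247) and in a fit that held a term for the range of the tumour numbers (2.30, 0.0463). Markers of immune cells were read beside these genes. Of 9 lymphocyte markers tested 6 rose in KO tumours, 5 of which had a WT mean under the level filter and so entered the test through the KO tumours. The T cell genes Cd8a and Ccl5 rose by 2.70 and 2.97 log2, and Jchain and Cd79a, of antibody-secreting and B cells, by 2.75 and 1.81 (adjusted p = 0.000192, 0.000479, 0.00151 and 0.00151), of which Jchain alone had a WT mean above the filter (9.37). Ptprc and Cd3d were at 0.94 and 0.58 log2 (adjusted p = 0.0671 and 0.133). The T cell gene Cd4, with a WT mean above the filter (6.66), differed by 0.05 log2 (limma, adjusted p = 0.788). The mean level of the 9 ranged from 7.52 to 8.05 in KO and from 6.14 to 6.79 in WT tumours, with the lowest KO value in KO tumour 2 and the highest WT value in WT tumour 12. Macrophage markers ranged from 8.89 to 9.07 in KO and from 7.99 to 8.92 in WT tumours, and of 9 tested 1 passed, Cd14, a co-receptor for bacterial lipopolysaccharide that rose by 1.91 log2 (adjusted p = 0.00186). Itgax and Lyz2 were at 0.58 and −0.43 log2 (adjusted p = 0.142 and 0.243). The part of these cells in the Nos2 and Duoxa2 signals was not tested.

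Reg3b and Reg3g, the bactericidal and bacteria-binding lectins of the mucosa, were at high levels in 1 KO and 1 WT tumour and far lower in the rest. Their upstream windows are set side by side because both genes had high signal in the same 2 tumours. Each covers the 250 bases before the start in RefSeq (GRCm38.p6), for Reg3b chr6:78370635-78370884, plus strand, and for Reg3g chr6:78468875-78469124, minus strand. Capitals mark motif matches on either strand.
Reg3b: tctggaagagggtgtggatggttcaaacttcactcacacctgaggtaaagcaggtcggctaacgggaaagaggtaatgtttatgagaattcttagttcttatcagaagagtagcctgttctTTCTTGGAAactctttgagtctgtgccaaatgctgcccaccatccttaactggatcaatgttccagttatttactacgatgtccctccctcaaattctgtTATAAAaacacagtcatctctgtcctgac
Reg3g: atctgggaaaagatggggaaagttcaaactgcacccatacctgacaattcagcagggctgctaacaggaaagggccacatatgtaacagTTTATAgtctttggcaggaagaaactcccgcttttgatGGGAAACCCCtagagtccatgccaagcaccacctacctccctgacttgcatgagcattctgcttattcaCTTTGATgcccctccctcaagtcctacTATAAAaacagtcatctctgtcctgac
Reg3b holds TTCTTGGAA, a match to the STAT motif TTCNNNGAA that begins 129 bases before the start, and TATAAA at 29 bases. Reg3g holds GGGAAACCCC, a match to the NF-kappaB motif at 123 bases, CTTTGAT, a TCF/LEF motif, at 54 bases, and TATAAA at 27 bases, with a further TATA box match on the other strand at 161 bases. Aligned end to end, the windows were identical at 177 of 257 aligned positions (68.9%), against 40.6% to 52.8% for the other pairs of member windows. Of 27025 RefSeq promoters cut to the same length, 7.18% held the STAT motif, 3.75% the NF-kappaB motif, 3.23% CTTTGAT and 13% TATAAA, the last of which was in 4 of the 9 member windows. CTTTGAA, found in 4.64% of all windows, and the C/EBP motif, in 0.0592%, were in none of these 9 windows. The interferon-stimulated response element (TTTC, any 2 bases, TTTC), in 3.04% of all windows, was in that of Saa3. The 9 windows include that of Duox2 and leave out Nos2, which had no entry among the promoters used and was not searched. A match is a run of letters, and binding was not measured.

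Reg3b (probe set 1416297_s_at) was at 5.36, 12.47, 4.57, 4.44 and 6.47 in KO tumours 11, 2, 6, 7 and 9, and at 4.62, 4.20, 9.01, 4.51 and 4.58 in WT tumours 1, 12, 13, 3 and 8. KO tumour 2 stood far above KO tumour 6 of the same mouse, and WT tumour 13 far above the other tumours of mouse 72. Those lower values are under the level filter and background was not assessed, so no fold is given. The second probe set of Reg3b, 1448290_at, gave 3.90, 11.22, 2.99, 2.98 and 5.04 in the same KO tumours and 3.42, 3.05, 8.09, 3.10 and 3.09 in the same WT tumours, with the same tumours on top. Reg3g (probe set 1448872_at) was at 5.93, 12.41, 6.03, 5.22 and 6.56 in KO tumours 11, 2, 6, 7 and 9, and at 4.30, 4.61, 10.50, 4.61 and 4.78 in WT tumours 1, 12, 13, 3 and 8. KO tumour 2 and WT tumour 13 again stood far above the rest. The other 4 WT tumours, all under the level filter, lay below every KO tumour, of which KO tumour 7 was under the filter too. Neither gene passed between genotypes (limma), with differences of 1.28 ± 1.62 log2 (SE, 95% interval from −2.30 to 4.86) for Reg3b and 1.48 ± 1.64 (from −2.13 to 5.09) for Reg3g (adjusted p = 0.695 and 0.648). In the fit over all probe sets the second Reg3b probe set differed by 1.09 ± 1.67 log2 (limma, adjusted p = 0.80). Without KO tumour 2 the differences were −0.17 for Reg3b, −0.41 for its second probe set and 0.19 for Reg3g, and without WT tumour 13 they were 2.17, 2.05 and 2.64. Reg3b and Reg3g have near copies in the Reg family, which a probe set cannot always tell apart.

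Other Reg genes of the mouse were listed with the antimicrobial effectors and lay under the level filter. Reg1 had 9.06 in KO tumour 2 and 3.25 in WT tumour 13, with 3.23 as its lowest value, so it was high in just 1 of the 2 tumours with high Reg3 signal. Reg2, Reg3a and Reg3d reached at most 5.52, 4.36 and 4.99, each in KO tumour 2. By the rule of highest correlation over the 10 tumours, Reg3b was most like Reg3g (r = 0.97), Myl1 (0.95) and Defa39 (0.94), and Reg3g was most like Reg3b, Clps (0.95) and Defa39 (0.95). Clps, the gene of colipase, a cofactor of pancreatic lipase, was at 10.76 in KO tumour 2, 9.41 in WT tumour 13 and 6.11 to 7.40 in the other 8. Defa39, an alpha-defensin of small intestinal Paneth cells with many near copies, was at 9.06, 8.77 and 6.06 to 6.49. Myl1, a myosin light chain gene of skeletal muscle, was at 10.91, 7.35 and 4.77 to 5.87. Since Reg3 genes and Clps are also expressed in pancreas, acinar markers were read in the same tumours. Of 10 with a probe set, 3 were tested and none passed, with 0 at an unadjusted p under 0.05. The mean of those 3, Clps, Cela1 and Cela3b, was 8.86 in KO tumour 2 and 8.28 in WT tumour 13, against 7.27 to 7.73 in the other 8. Clps was high in both tumours as given above, while the elastase gene Cela1 was at 9.44 and 8.96 in them, with its highest value of 9.68 in KO tumour 6, and Cela3b at 6.38 and 6.47, with its highest value of 7.03 in WT tumour 12. The other 7 lay under the level filter, among them Cpa1, at 5.10 in KO tumour 2 and 5.09 in WT tumour 13, and Ctrb1, at 4.59 and 4.47. The part of pancreatic RNA in the Reg3 signal was not tested. The 3′ to 5′ difference of the control probe sets, a measure of RNA integrity and amplification, was 1.17 in KO tumour 2 and 1.14 in WT tumour 13, against 0.71 to 0.97 in the other 8. With it as a covariate the differences were 2.78 log2 for Reg3b and 3.01 for Reg3g (limma, adjusted p = 0.113 and 0.0855), and its part in the Reg3 signal was not tested.

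**Figure D3:**
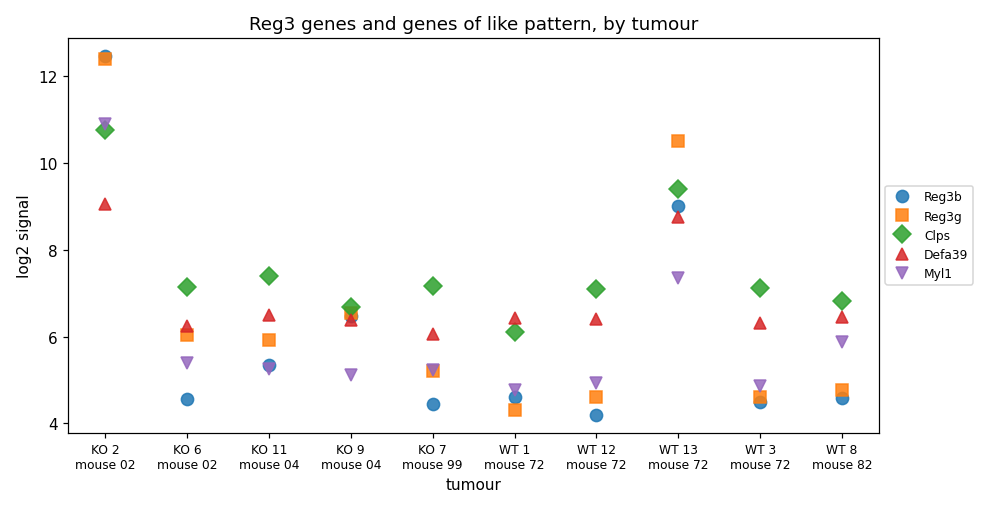
The log2 signals (vertical axis) of Reg3b, Reg3g, Clps, Defa39 and Myl1 are plotted for each tumour (horizontal axis, with its mouse). All 5 genes are highest in KO tumour 2 and next highest in WT tumour 13, and the other tumours of mice 02 and 72 lie well below.

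Reg4, a secreted Reg-family lectin of goblet and endocrine cells that is also found in colon tumours, was uniformly high in KO tumours. Probe set 1418931_at was at 12.61, 12.83, 12.77, 12.67 and 12.80 in KO tumours 11, 2, 6, 7 and 9, and at 11.51, 9.60, 12.67, 12.05 and 10.42 in WT tumours 1, 12, 13, 3 and 8. The KO tumours spanned 1.17-fold and the WT tumours 8.40-fold, and WT tumour 13 was the only WT tumour within the KO range. The KO mean of 12.74 ± 0.09 was above the WT mean of 11.25 ± 1.24, a difference of 1.51 ± 0.52 log2 (SE, 95% interval from 0.36 to 2.66) that did not pass (limma, adjusted p = 0.114). It passed over mouse means (1.79, adjusted p = 0.0432), without WT tumour 13 (1.85, 0.0418), without mouse 72 (2.31, 0.00285) and among unique numbers 254 to 258 (1.24, 0.0178), the last of these and the fit without mouse 72 with 1 WT tumour. The mean level of this probe set was in the 98.5th percentile of all probe sets, and whether its signal was near the upper limit of the array was not tested. A list of epithelial markers, read as a check on the dissected tissue, had a mean of 11.62 to 11.92 in KO and 10.89 to 12.17 in WT tumours. Vil1, the gene of villin, was at 0.69 log2 with KO above WT in every tumour (adjusted p = 0.0716), the E-cadherin gene Cdh1 was at 0.34 (0.189), and 10 of the 12 were above 0. None of the 12 epithelial markers and none of 8 fibroblast markers passed (limma), with 2 and 1 at an unadjusted p under 0.05, and the fibroblast genes Dcn and Col1a1 were at −0.74 and −0.53 log2 (adjusted p = 0.214 and 0.291). The fibroblast mean ranged from 9.43 to 10.40 in KO and from 9.26 to 10.51 in WT tumours. Over all 10 tumours Reg4 was most like Tlnrd1 (r = 0.94), Ppp1r13b (0.94) and Plch2 (0.92), of which Tlnrd1 and Plch2 rose in KO tumours, by 0.43 and 1.04 log2.

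Saa3 encodes a serum amyloid A protein made outside the liver, by epithelium and macrophages among others. Probe set 1450826_a_at was at 9.95, 10.69, 8.27, 9.0 and 7.77 in KO tumours 11, 2, 6, 7 and 9, and at 10.39, 10.78, 11.81, 10.29 and 9.51 in WT tumours 1, 12, 13, 3 and 8. Of the KO tumours, 3 lay below every WT tumour, and within mouse 04 and within mouse 02 the tumours differed by 4.55-fold and 5.34-fold. The mean was 9.14 ± 1.20 in KO and 10.56 ± 0.84 in WT (difference −1.39 ± 0.61 log2, SE, 95% interval from −2.73 to −0.04), which did not pass (limma, adjusted p = 0.209). Of 7 further acute phase genes tested, 0 passed (limma) and 2 had an unadjusted p under 0.05, with a median difference of −0.36 log2. Without KO tumour 2 there was 1 lower and the median was −0.09, without KO tumour 6 it was −0.16, and with the number range as a term it was 0.20. Hp, the gene of the haemoglobin-binding protein haptoglobin, differed by −1.71 log2 and Cp, the gene of the copper protein ceruloplasmin, by −1.04 (adjusted p = 0.0970 and 0.138). Saa1 and Saa2, near copies of each other, differed by −0.88 and −0.17 log2 (adjusted p = 0.743 and 0.713). Saa3 was most like Chd3 (r = 0.93), Prkdc (0.93) and Hp (0.92) over the 10 tumours.

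The members were among the most variable genes between tumours of the same genotype. The SD over the 5 KO tumours lay at the 93.9th percentile of the genes tested or above for 8 of the 9 members, from S100a9 (0.61) to Reg3b (3.35), against a median SD of 0.22. Reg4 was the exception, with an SD of 0.09 at the 7.88th percentile. Over the 5 WT tumours 8 of the 9 lay at percentile 95.2 or above, and Nos2, with an SD of 0.27, was at percentile 58.1, against a median SD of 0.23. Nos2 thus varied more among KO than among WT tumours, where its spread was near the median of all genes tested. Reg4 varied among WT tumours and little among KO tumours. The WT mean of Nos2 (5.64) lay under the level filter, and the mean level of Reg4 was in the 98.5th percentile. Whether the lower or upper limit of the array narrowed these spreads was not tested. Those differences in spread were not tested.

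Some pairs of members moved together across the tumours, given here as a description over 10 arrays that share their normalisation and, in part, their mice. S100a8 and S100a9 correlated at r = 0.99 over 10 tumours, and at 0.97 in KO and 0.9996 in WT tumours. Lcn2 correlated with S100a9 at 0.67 over all tumours, at 0.95 in KO and at 0.80 in WT. The KO value leans on KO tumour 6, which stood apart at the low end for both genes (Lcn2 3.95, next 7.11, S100a9 8.11, next 9.19). Nos2 and Duoxa2 correlated at 0.93 over all tumours, at 0.96 within KO and at 0.93 within WT. Of the WT tumours only WT tumour 12 (6.02) had Nos2 above the level filter, and Duoxa2 was under it in WT tumours 1 and 3. Background was not assessed there. Reg3b and Reg3g correlated at 0.97 over all, and the 2 Reg3b probe sets at 0.998. Both values lean on KO tumour 2 and WT tumour 13 (Reg3b 12.47 and 9.01, against 4.20 to 6.47 in the other 8). Nos2 and Reg3g correlated at −0.76 in KO and at 0.07 in WT tumours, with 5 tumours in each. KO tumour 2 alone had both the lowest Nos2 (5.88) and the highest Reg3g (12.41, next 6.56) of the KO tumours. The KO value thus leans on 1 tumour and shows no inverse relation among the others.

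**Figure D4:**
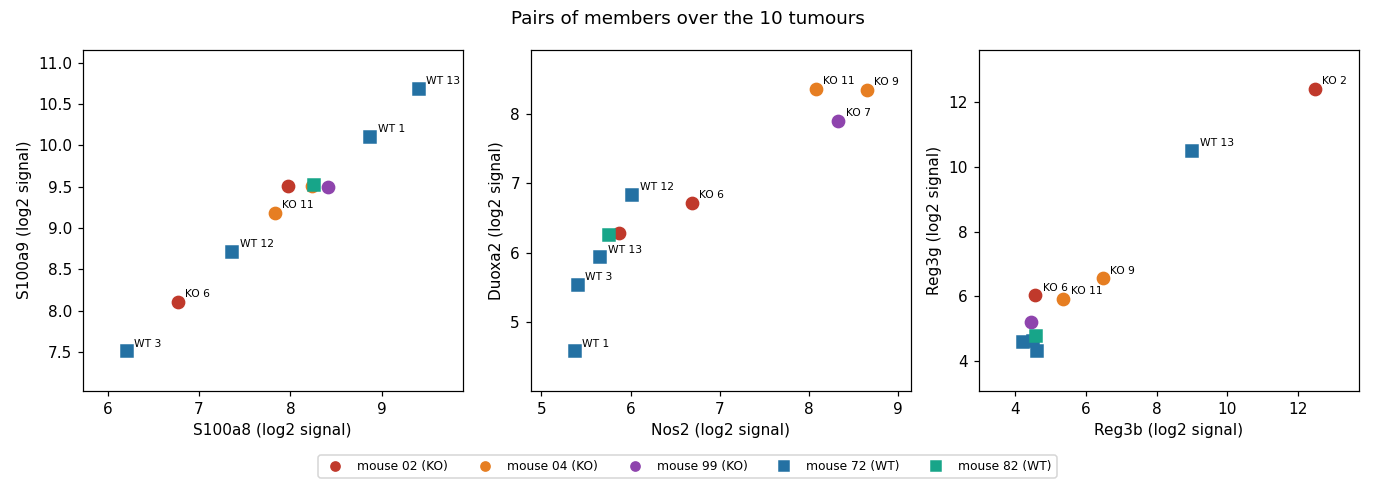
Each panel sets the log2 signal of 1 member against another in the 10 tumours (circles KO, squares WT, colours by mouse), for S100a8 and S100a9, Nos2 and Duoxa2, and Reg3b and Reg3g. S100a8 and S100a9 lie along a line with WT tumours at both ends, KO tumours 7, 9 and 11 lie apart at high Nos2 and Duoxa2, and KO tumour 2 and WT tumour 13 lie apart for the Reg3 genes.

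Among other genes of oxidant production and removal, 20 were tested, 4 rose in KO tumours and none fell, with a median difference of 0.27 log2, or 0.17 without WT tumour 8. The glutathione peroxidases Gpx1 and Gpx2, which reduce hydrogen peroxide, rose by 0.58 and 1.02 log2 (limma, adjusted p = 0.0130 and 0.0208, each call lost in 5 of 29), from 12.02 to 12.60 and from 11.40 to 12.40 on average. Noxo1, the organiser of the colonic NADPH oxidase Nox1, rose by 1.17 log2 (10.62 ± 0.28 against 9.46 ± 0.57, adjusted p = 0.0302), a call lost in 10 of 29 alternative fits. Rac2, a GTPase of the phagocyte oxidase, rose by 0.53 log2 (adjusted p = 0.0471), and that call was lost in 17 of 27 alternative fits. Duoxa1, the partner of Duox1, differed by 0.71 log2 (adjusted p = 0.249), and Cybb, the phagocyte oxidase subunit, by 0.04. Arg2 and Ncf4, an arginase and an oxidase subunit, did not pass at 0.62 and 0.54 log2 (adjusted p = 0.0787 and 0.123). The list's count was 1 without KO tumour 6, 2 without WT tumour 13 or WT tumour 8, and 0 without mouse 04.

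Among other antimicrobial effectors 16 were tested and 1 rose, with a median difference of 0.48 log2 that was 0.20 without WT tumour 1 and −0.05 without mouse 72. Mmp7, the protease that activates defensins, rose by 0.93 log2 (adjusted p = 0.0213, limma), a call lost in 7 of 29 alternative fits. The list's count was 0 without KO tumour 6, 2 without KO tumour 7, WT tumour 1 or WT tumour 12, and without WT tumour 3 it was 1 higher and 1 lower. Pigr, the receptor that carries IgA into the lumen, was at 12.62 ± 0.34 in KO and 10.31 ± 1.52 in WT tumours without overlap and did not pass (2.29 log2, adjusted p = 0.0630). WT tumour 1 was at 7.67 and the other WT tumours at 10.59 to 11.55. Pigr passed in 8 of 29 alternative fits (limma). Among these were mouse means (2.12, adjusted p = 0.0169), the number range as a term (3.32, 0.0154) and the fit without WT tumour 1 (1.66, 0.00529). Pla2g2a, a bactericidal phospholipase, had a difference of −2.31 log2 (adjusted p = 0.121), with KO tumours from 5.39 to 9.82. Its difference was −0.12 within unique numbers 191 to 229 and −3.98 within 254 to 258, each with 1 tumour in a genotype. Lysozyme genes Lyz1 and Lyz2 differed by −0.02 and −0.43 log2 without passing.

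Of 21 receptors and regulators of these pathways tested, 3 rose and none fell, with a median difference of 0.32 log2. Irf1, a transcription factor of the interferon response, rose by 1.76 log2 (12.08 ± 0.28 against 10.31 ± 0.23, adjusted p = 0.000301, limma). Nfkbiz, a nuclear co-factor of NF-kappaB at antimicrobial genes, rose by 1.21 log2 (adjusted p = 0.0206, lost in 8 of 29 alternative fits), and Myd88, the adaptor of Toll-like receptors, by 0.97 log2 (adjusted p = 0.0342), a call lost in 14 of 29 alternative fits. Cebpd and Il6st, a C/EBP factor and the shared receptor chain of the interleukin-6 family, were at 0.73 and −0.70 log2, short of the threshold (adjusted p = 0.0548 and 0.0630). The receptor gene Il22ra1, which gives epithelium its response to interleukin-22, differed by 0.86 log2 (adjusted p = 0.202) and Stat3, its downstream factor, by −0.02. The list's count of higher genes was 1 without KO tumour 6 or WT tumour 1, and 2 without KO tumour 7, WT tumour 13 or WT tumour 8. Among tumours numbered 191 to 229 none of the 3 calls held.

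By highest correlation over the 10 tumours Nos2 was most like Cd274 (r = 0.98), Tnfrsf1b (0.97) and Il18bp (0.97), genes of an immune checkpoint ligand, a TNF receptor and an interleukin-18 inhibitor. Il18bp rose in KO tumours by 1.16 log2. Duoxa2 was most like Trim40 (0.99), 4833407H14Rik (0.97) and Parp12 (0.97), of which the last 2 rose, by 1.73 and 1.22 log2, the first of these from a WT mean under the level filter. Lcn2 was most like Tomm34 (0.92), Champ1 (0.91) and Gzf1 (0.90). After each other, S100a8 and S100a9 were most like Pla2g7, a lipid-cleaving enzyme of macrophages (0.94 and 0.95), then Ncstn (0.93) for S100a8 and Pard6g (0.93) for S100a9.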

How the data were processed

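Arrays of 10 tumours were analysed. The submitters' processing notes name RMA (version not given), and the signals the authors deposited are on the log2 scale, with array medians from 6.43 to 6.50. Among the 45101 probe sets the annotation gave 34945 a single gene, 932 more than 1 and 9160 no gene, and 64 were controls. RefSeq (GRCm38.p6) supplied current symbols for 34741, while the files name no build. Each of the 18193 genes was represented by its brightest probe set on average, and 12250 genes entered the test, those not under the 40th percentile of mean signal. The test was limma 3.58.1 (R 4.3.3, statmod 1.5.0), in which tumours of a mouse shared a random effect (consensus correlation 0.0586 over genes, 0.0553 over all probe sets), with Benjamini-Hochberg adjustment and a threshold of 0.05. All members were named. From each other list up to 4 genes past the threshold and 2 others were named by smallest p, and for each member the 3 most correlated genes. Further list genes (Duoxa1, Cybb, Lyz1, Il22ra1, Stat3, Saa1, Saa2, Ltf, Cd4 and those under the level filter) were chosen after their values were seen. The members, lists and settings were chosen with earlier results of these data known. RefSeq promoters matched 9 of 10 members, all but Nos2. Alternatives are given in the closing section.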

Additional observations from a re-analysis of the deposited data

Results flagged for a closer look

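Single tumours stood apart from the other 4 of their genotype in 8 of 20 sets of 5 values (10 probe sets in 2 genotypes), by Dixon's test with a critical value of 0.71, which chance passes in about 1 of 20. The sets are not independent, since the Reg3 probe sets share tumours and near-identical genes. KO tumour 6 was low for Lcn2 (3.95, next tumour 7.11) and for S100a9 (8.11, next 9.19). KO tumour 2 was high for Reg3b (12.47, next 6.47, and 11.22, next 5.04, in its second probe set) and for Reg3g (12.41, next 6.56). WT tumour 13 was high for Reg3b (9.01, next 4.62, and 8.09, next 3.42) and for Reg3g (10.50, next 4.78).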

How the results depend on the processing

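Of the 9 members, Lcn2, Nos2, Duoxa2, Reg4 and Saa3 kept their sign in all alternatives that gave a value (28 or 29 each). With 1 tumour left out at a time, 0 to 2 members were called higher, and the counts over all genes ranged from 286 to 539 higher and from 186 to 406 lower, and over all probe sets from 575 to 1097 and from 432 to 1099. The number of members called higher was 0 with the 3′ to 5′ covariate, without a level filter, with a filter at the 60th percentile (5 members tested) and without mouse 04, 82 or 99, and 2 without mouse 02. None was called lower under any of these alternatives. Genes called higher and lower were 195 and 193 over mouse means, 12 and 18 within unique numbers 191 to 229, 331 and 217 with the 3′ to 5′ covariate, 318 and 230 without mouse 02, 265 and 202 without mouse 04, and 135 and 153 without mouse 72, and 219 were lower with the filter at the 60th percentile. Fits with 1 tumour in a genotype assume that it varies like the others. Signs turned for S100a8 and S100a9 within numbers 191 to 229 (0.62 and 0.41), with the 3′ to 5′ covariate (0.093 and 0.17), without mouse 02 (0.13 and 0.086) and in leave-one-out fits (lowest −0.61 and −0.58, highest 0.16 and 0.19, with 0.08 and 0.11 without KO tumour 6, and 0.02 and 0.04 without WT tumour 1). They turned for Reg3b (−1.18) and Reg3g (−0.97) within numbers 191 to 229, and for Reg3b without KO tumour 2 (−0.17, with 2.17 as the highest leave-one-out value, and −0.41 to 2.05 for its second probe set). The cause was not tested. No paired analysis was possible because KO and WT tumours share no tumour number and no mouse. Signal over background was not analysed here.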
